A study of Mus musculus with 4 samples.

Results

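The genes described here are the Id helix-loop-helix genes and genes of the bone morphogenetic protein (BMP) pathway, in esophageal tumours of mice. The 10 genes, taken by symbol, were Id1, Id2, Id3, Id4, Bmp2, Bmp4, Bmp7, Bmpr1a, Smad6 and Smad7. Of these, 9 were among the 14157 genes of the deposited table, and Bmp4 was not listed and is not analysed here. All 9 also reached a value of 1 in 2 or more libraries, as did 12304 of the listed genes, which are called the tested genes. The 10 genes were chosen with the KO and WT values of this table known, so their differences between genotypes are given as a description and carry no test.

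RNA was sequenced from 4 tumours of C57BL/6 mice treated with 4NQO (4-nitroquinoline 1-oxide), a carcinogen whose metabolites form DNA adducts. KO denotes the 2 libraries whose genotype is given as S100A14 CKO (replicates 1 and 8), and WT the 2 libraries of wild-type mice (replicates 3 and 6). The promoter or Cre line behind the CKO label, the age of the mice and the length of treatment are not given in the sources used here. Nor do the labels say that the libraries are from different mice, so p-values measure only the spread between these libraries, which may be technical.

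BMPs are secreted ligands that bind pairs of type I and type II receptor kinases. The receptors phosphorylate SMAD1, SMAD5 and SMAD9, which join SMAD4 and enter the nucleus to switch on target genes. Id genes are among the most direct of these targets. Id proteins have a helix-loop-helix but no DNA-binding basic region, so they pair with E proteins such as TCF3 and keep them off DNA. In squamous epithelium Id expression is known mainly from proliferating, undifferentiated cells, and Id1 and Id3 are also strongly expressed in endothelium. Smad6 and Smad7 are themselves induced by the pathway and feed back to restrain it.

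Stretches of 30 bases around SMAD-type letters are shown for the Id genes and Smad6, because BMP signalling is known to induce these genes. RefSeq promoter windows (build GRCm38.p6) were available for 5 of the 9 listed genes: Id2, Id3, Id4, Bmpr1a and Smad6. The 250 bases before each start were searched on both strands for GGCGCC, the GC-rich element bound by SMAD1 and SMAD5, and for GTCT, the core SMAD box. Capitals mark the match, and a GTCT on the other strand reads AGAC. Sequences run along the gene's strand.
Id3 upstream match, chr4:136143643-136143672, plus strand: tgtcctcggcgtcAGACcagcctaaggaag
Id3 downstream match, chr4:136143741-136143770, plus strand: tggacccttggcgGTCTgttttgaataagg
Id2 GC-rich match, chr12:25096306-25096335, minus strand: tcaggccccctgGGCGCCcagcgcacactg
Id2 SMAD box, chr12:25096099-25096128, minus strand: gagtgcacataaaAGACgccccgcccggct
Id4 GC-rich match, chr13:48260956-48260985, plus strand: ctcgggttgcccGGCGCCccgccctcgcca
Smad6 SMAD box, chr9:64022060-64022089, minus strand: aatcagcgccgcggagccgccaaagtGTCT
Id3 had 2 GTCT matches, beginning 166 and 68 bases before the start, and no GGCGCC. Id2, Id4 and Bmpr1a each had 1 GGCGCC, which in Id2 and Id4 began 231 and 148 bases before the start. Starts here are those of RefSeq, and for Id3 and Id2 the stretches lie inside the longer GENCODE gene spans. Across 32851 promoters of the same length, 9.59% held GGCGCC and 82.9% held GTCT, so a GTCT match is common to most promoters. The windows of Id2, Id4 and Bmpr1a were 62.8%, 75.6% and 78.8% G or C, against a median of 52.4% over all promoters. Whether GGCGCC is more frequent in them than in promoters of like base composition was not tested. TATAA, the TATA-box core, was found once in the window of Id3 and not in those of Id2, Id4, Bmpr1a and Smad6, against 22.8% of all promoters. No motif count was tested against the expression values.

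The libraries held 16182109 and 11672010 reads in KO replicates 1 and 8 and 11132019 and 11545921 in WT replicates 3 and 6, of which genes annotated as ribosomal RNA took 47.0% to 76.4%. Nuclear protein-coding genes had 1052423 to 2107060 reads, so a member with a value near 1 rests on a handful of reads. Values are reads scaled by the authors, and 1 read was worth 0.193 to 0.318. S100a14, the targeted gene, had 0 and 1 reads in KO and 463 and 347 in WT. KO replicate 8 stood apart: its log2 values correlated with those of the other libraries at r = 0.769 to 0.816 across 12304 genes, against 0.908 to 0.915 among the other 3. Values of the members and of most other named genes are therefore given for each KO library.

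Id3 and Id1, the Id genes with the highest levels in WT tumours, were lower in both KO libraries. Id3 (ENSMUSG00000007872, chr4:136143497-136145755, plus strand, GRCm38) had values of 12.3 and 14.4 in KO replicates 1 and 8, against 57.7 and 65.4 in WT replicates 3 and 6. The KO libraries were close to each other, as were the WT libraries, and the genotypes were far from overlapping. The reads behind these values were 56 and 56 in KO and 299 and 206 in WT. Id3 averaged 13.4 ± 1.496 in KO and 61.6 ± 5.47 in WT (SD, n = 2 each), a KO level 0.217 times that of WT. Its log2 fold change on the log2(value + 1) scale was −2.12 (SE 0.42), and set against the WT mean KO replicate 1 was at −2.23 and KO replicate 8 at −2.02. Of all 12304 tested genes, 148, or 1.20%, had a fold change as low as that of Id3 or lower.

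Id1 (ENSMUSG00000042745, chr2:152736251-152737410, plus strand, GRCm38) had 10.8 and 17.01 in KO replicates 1 and 8, against 40.0 and 27.0 in WT replicates 3 and 6. The genotypes did not overlap, but the replicates of each were more widely spread than for Id3. Id1 averaged 13.9 ± 4.41 in KO and 33.5 ± 9.16 in WT (SD, n = 2 each), with a log2 fold change of −1.22 (SE 0.47). Within each genotype the Id1 replicates differed by more than counting error. KO replicate 8 was 1.58 times KO replicate 1 (95% exact Clopper-Pearson interval 1.07 to 2.33), and WT replicate 3 was 1.48 times WT replicate 6 (1.14 to 1.93). For Id3 the same ratios were 1.17 for KO replicate 8 over KO replicate 1 (0.794 to 1.73) and 1.13 for WT replicate 6 over WT replicate 3 (0.945 to 1.36). Replicate differences in Id3 were therefore not detectable at this depth. These intervals cover counting error only, because amplified reads that carry no molecular identifier can be copies of 1 molecule.

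Id2 and Id4 did not follow Id1 and Id3. Id2, which in other tissues is a regulator of lymphoid and epithelial progenitors, had 9.24 and 9.79 in KO replicates 1 and 8 and 8.69 and 16.2 in WT replicates 3 and 6. Both KO values lay between the WT values. Its log2 fold change was −0.30 (SE 0.49), and it turned to 0.12 without WT replicate 6. Id4, the family member best known from neural progenitors and germline stem cells, had 3.08 and 8.76 in KO and 3.47 and 1.59 in WT. KO replicate 8 was the highest of the 4 libraries, while KO replicate 1 lay within the WT values. The Id4 fold change of 0.89 (SE 0.63) was 1.52 for KO replicate 8 alone and 0.26 for KO replicate 1 alone, and the WT replicate 6 value rested on 5 reads. Long noncoding RNA genes on the opposite strand, which the deposited table does not list, share exon bases with Id4. The sources used here do not say whether reads were assigned by strand.

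**Figure D1:**
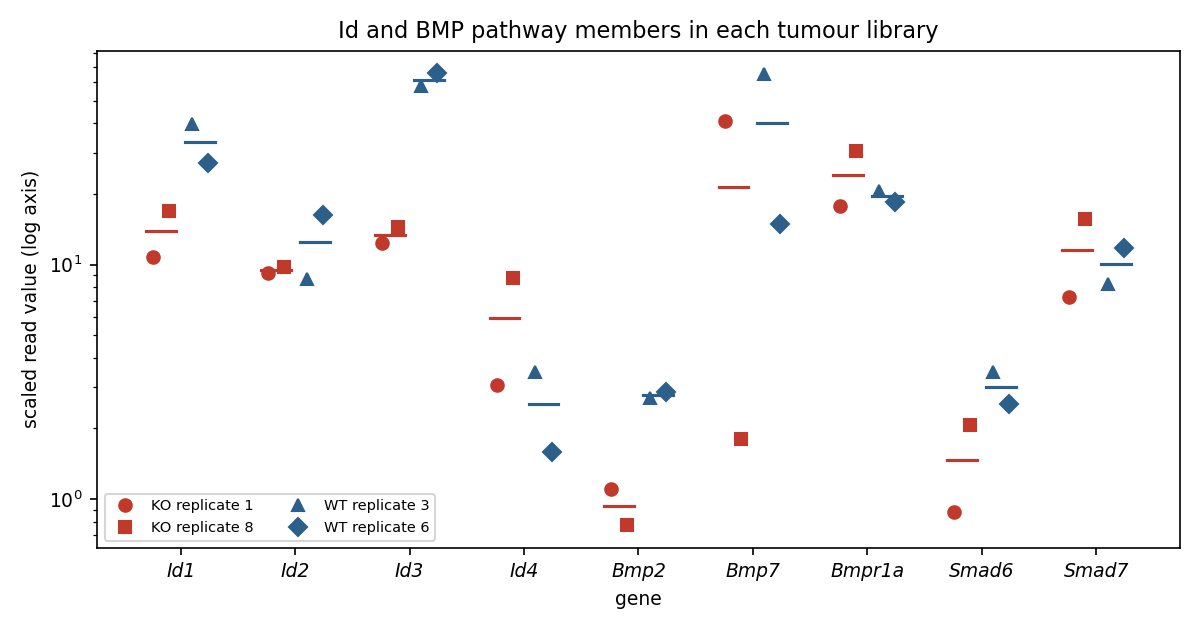
Scaled read value (log axis) of the 9 listed genes in each of the 4 libraries, KO in red and WT in blue. Symbols are libraries and horizontal lines are genotype means (n = 2). Id3, Id1, Bmp2 and Smad6 have both KO libraries below both WT libraries, and Bmp7 spans 1.80 to 41.1 within KO.

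Summed over the family per kilobase of exon, Id expression was 20.8 and 29.0 per kb in KO replicates 1 and 8 and 71.1 and 66.9 per kb in WT replicates 3 and 6. Most of this total came from Id1 and Id3 in every library. Id3 made up 33.1% and 27.8% of the family total in KO replicates 1 and 8, against 45.3% and 54.6% in WT replicates 3 and 6. Id2 took 18.3% and 13.8% in KO and 5.01% and 9.94% in WT, a larger share of a smaller total. The share of Id1 overlapped, at 44.8% and 50.5% in KO and 48.4% and 34.8% in WT.

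Read ratios between members of a library do not depend on how libraries are scaled. The ratio of Id3 to Id2 reads was 1.33 and 1.47 in KO replicates 1 and 8 and 6.64 and 4.04 in WT replicates 3 and 6. Id3 over Bmpr1a was 0.691 and 0.475 in KO and 2.79 and 3.55 in WT. The KO and WT ratios did not overlap for either pair. Id3 over Id1, at 1.14 and 0.848 in KO and 1.44 and 2.42 in WT, did not overlap either. The nearest of these ratios rest on 56 over 49 reads in KO replicate 1 and 299 over 207 in WT replicate 3. Their counting error was not assessed. Id1 over Bmpr1a did not overlap, at 0.605 and 0.559 in KO and 1.93 and 1.47 in WT. Id1 over Id2 did overlap, at 1.17 and 1.74 in KO and 4.60 and 1.67 in WT.

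**Figure D2:**
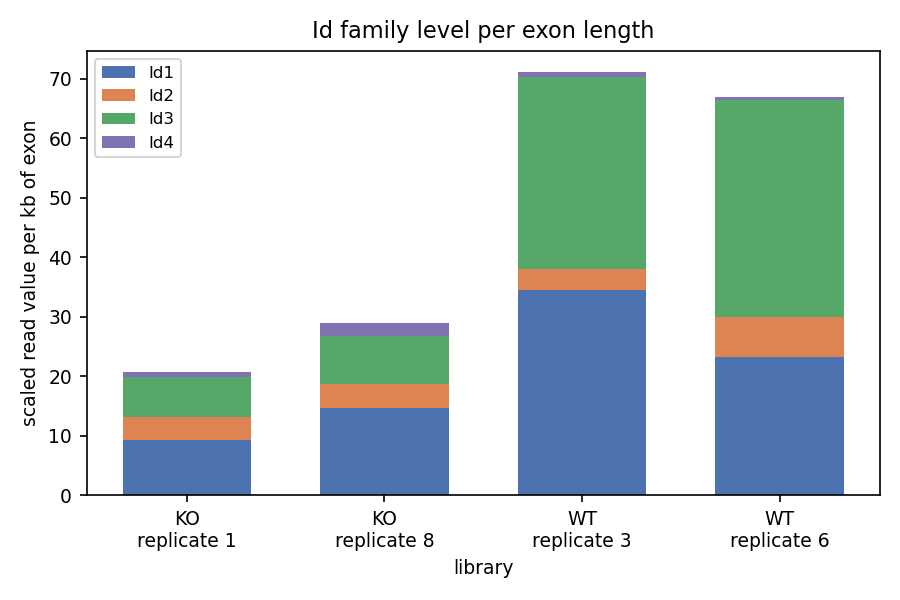
Summed scaled read value per kb of exon of the 4 Id genes in each library, stacked by gene. The KO libraries reach 20.8 and 29.0 per kb and the WT libraries 71.1 and 66.9 per kb, with Id1 and Id3 the thickest layers in each.

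The BMP ligands were low or uneven between libraries. Of 14 ligand genes in the list 3 were tested, 2 lower and 1 higher in KO. The higher one was Bmp3, with 7.04 and 4.90 in KO replicates 1 and 8 and 1.93 and 0 in WT replicates 3 and 6. Its reads were 32 and 19 in KO and 10 and 0 in WT, the genotypes did not overlap, and its fold change was 2.01 (SE 0.66). Bmp2, a ligand that signals through BMPR1A and often acts close to its source, had 1.10 and 0.773 in KO replicates 1 and 8 and 2.70 and 2.86 in WT replicates 3 and 6. The genotypes did not overlap, but the KO values rest on 5 and 3 reads and the WT values on 14 and 9. By reads per unit of depth, pooled over the libraries of a genotype, the KO rate of Bmp2 was 0.344 times the WT rate. The 95% exact Clopper-Pearson interval was 0.133 to 0.796. All such intervals of KO over WT rates cover counting error only, leave out the spread between libraries and are no test. They included 1 for Id2 (0.604 to 1.12), Bmpr1a (0.965 to 1.47) and Smad7 (0.853 to 1.58), and lay above 1 for Id4 (1.23 to 3.55). The Bmp2 fold change of −0.97 (SE 0.52) on the log2(value + 1) scale understates the ratio of so low a gene, and with a pseudocount of 0.1 it was −1.49.

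Bmp7, a ligand of epithelia that signals mainly through ACVR1 and the type II receptors, had 41.1 and 1.80 in KO replicates 1 and 8, against 65.05 and 14.9 in WT replicates 3 and 6. The replicates of each genotype differed by more than the genotypes did. KO replicate 1 was 22.8 times KO replicate 8 (95% exact Clopper-Pearson interval 10.8 to 57.5), and WT replicate 3 was 4.36 times WT replicate 6 (3.20 to 6.04). The fold change of Bmp7, −1.58 (SE 1.24), became 0.38 without KO replicate 8 and −3.53 without KO replicate 1.

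Bmpr1a, the type I receptor shared by BMP2 and BMP4, had 17.8 and 30.4 in KO replicates 1 and 8 and 20.7 and 18.4 in WT replicates 3 and 6. The WT libraries lay between the KO libraries. Its log2 fold change was 0.25 (SE 0.46), and −0.12 without KO replicate 8. An antisense gene that the deposited table lists, Gm17110, shares exon bases with Bmpr1a, so some reads could belong to either.

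Of the inhibitory SMADs, Smad6, which blocks BMP type I receptors most strongly, had 0.880 and 2.06 in KO replicates 1 and 8 and 3.47 and 2.54 in WT replicates 3 and 6. The genotypes did not overlap, on 4 and 8 reads in KO and 18 and 8 reads in WT. Its log2 fold change was −0.73 (SE 0.55), and it was −1.08 for KO replicate 1 alone and −0.38 for KO replicate 8 alone. Per unit of depth the KO rate of Smad6 was 0.456 times the WT rate (95% exact Clopper-Pearson interval 0.210 to 0.936, counting error only). Smad7, which restrains both BMP and TGF-beta receptors, had 7.26 and 15.7 in KO and 8.30 and 11.8 in WT. Its WT values lay inside its KO values, and its fold change of 0.11 (SE 0.53) was −0.40 for KO replicate 1 alone and 0.62 for KO replicate 8 alone.

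The fold change was below 0 for 6 of the 9 members, as for 52.5% of tested genes. Both KO libraries lay below both WT libraries for 4 of the 9 members (Id1, Id3, Bmp2 and Smad6), as they did for 19.3% of tested genes, and above them for 0 of 9, as for 14.5% of tested genes. The median log2 fold change of the 9 was −0.73, against −0.03 over all tested genes. No member was past the threshold of 0.05 in limma, where 0.00813% of tested genes were called (S100a14 alone). At an unadjusted p under 0.05, 2 of the 9 members and 646 of all 12304 genes would pass. In the authors' deposited table Id3 had a log2 fold change of −2.20 and an adjusted p of 0.0352, and it was the sole member past 0.05 there, where 0.749% of the 14157 listed genes were. DESeq2 on the recovered reads likewise called Id3 and no other member, with 0.406% of genes called, and edgeR's quasi-likelihood test called 0 members and 0 genes, with 630 genes at an unadjusted p under 0.05. Without KO replicate 1, limma called Id3 and Bmp7, and 4.14% of tested genes. These counts describe genes chosen on the same contrast, and nothing is read from them.

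**Figure D3:**
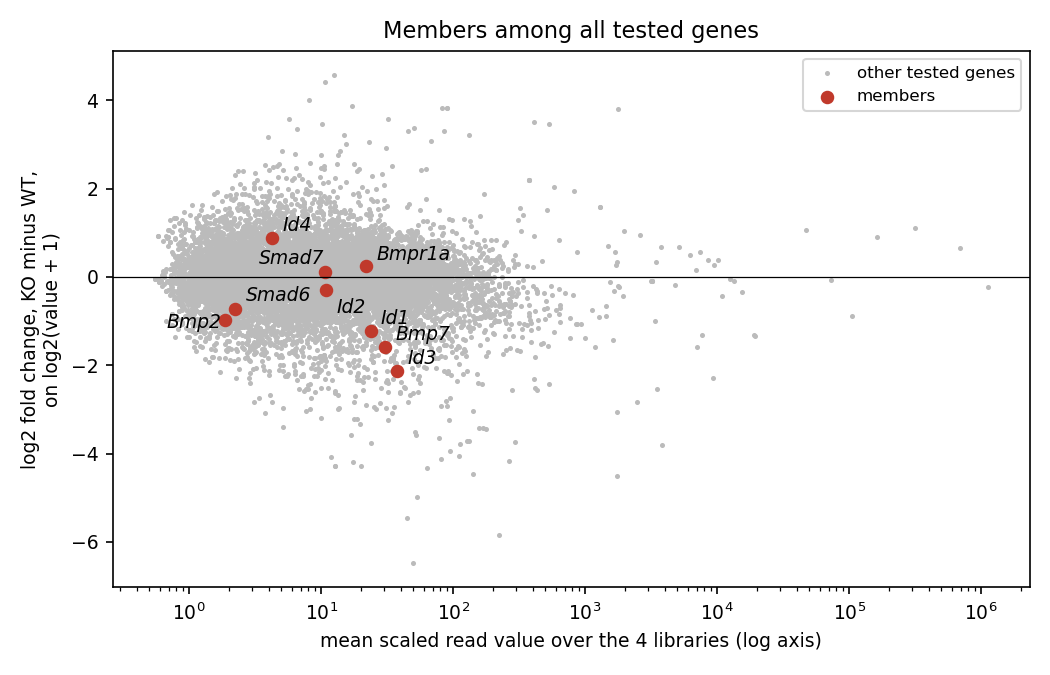
Log2 fold change (KO minus WT, on log2(value + 1)) against mean scaled read value (log axis) for the 12304 tested genes in grey and the 9 members in red. Id3, at −2.12, is the lowest of the members, with other genes of similar level below it, while Id2, Smad7 and Bmpr1a lie near 0.

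Per kilobase of exon, the order of the members also differed between genotypes. In KO the highest was Id1 at 12.0 ± 3.80 per kb (SD, n = 2), then Id3 at 7.47 ± 0.835. In WT, Id3 came first at 34.4 ± 3.05 and Id1 second at 28.9 ± 7.89, and these neighbours overlapped. Bmp7, Id2, Bmpr1a and Smad7 followed in both genotypes. In KO each of Id3, Bmp7, Id2, Bmpr1a, Smad7 and Smad6 overlapped the next gene down. In WT, Bmp7 overlapped Id2, Smad6 overlapped Bmp2 and Bmp2 overlapped Id4. Bmp2 was lowest in KO, at 0.263 ± 0.0650 per kb, and Id4 lowest in WT, at 0.658 ± 0.346 per kb.

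The fold changes of Id1, Id3, Bmp2 and Smad6 were below 0, and that of Id4 above 0, in all 11 alternatives run. For Id1, Id3, Bmp2 and Smad6 the sign with 1 library left out was fixed beforehand, because both KO libraries lay below both WT libraries. The fits with no filter or an untrended prior leave every fold change as it was, so this count is a description only. Over the alternatives, Id3 ranged from −2.23 to −2.02 with a library left out and from −2.20 to −2.06 in the others. Id1 ranged from −1.52 to −0.91 and from −1.27 to −1.16 in the same way. Id2, Bmp7, Bmpr1a and Smad7 changed sign when 1 library was left out.

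**Figure D4:**
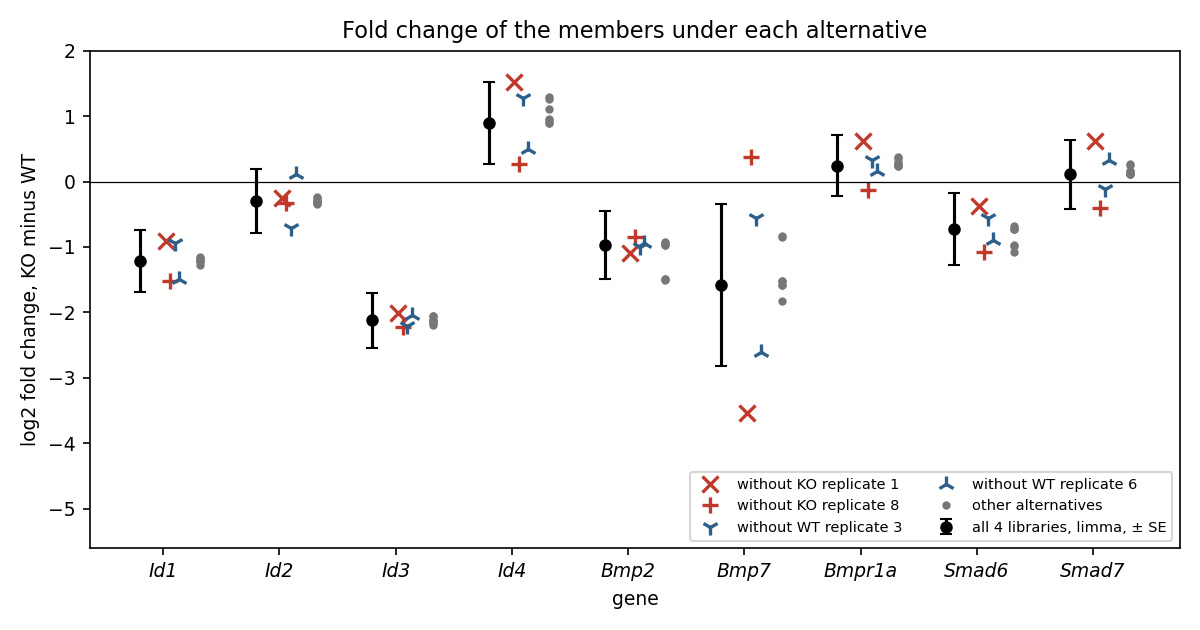
Log2 fold change (KO minus WT) of the 9 members. Black points with bars are the limma estimates ± SE from all 4 libraries, coloured marks leave out 1 library each, and grey points are the other 7 alternatives. Id3 stays between −2.23 and −2.02, while Bmp7 runs from −3.53 to 0.38.

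Beyond the members, 66 further genes had been listed as BMP ligands, receptors, antagonists, SMADs, inhibitors or targets. Of these, 42 were in the table and 39 were tested. None was past the threshold in limma (smallest adjusted p = 0.442), and 3 had an unadjusted p under 0.05. In KO 23 were higher and 16 lower, with a median log2 fold change of 0.18, which came to −0.16 when KO replicate 8 was left out and 0.48 when KO replicate 1 was. Both KO libraries lay above both WT libraries for 7 of the 39, against 14.5% of all tested genes, and below them for 5, against 19.3%.

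Among BMP receptors and coreceptors, 5 of 10 tested genes were higher and 5 lower in KO (median −0.00, against −0.03 over all genes). Bmpr2, the type II receptor, had 35.5 ± 9.17 in KO and 32.6 ± 5.21 in WT (SD, n = 2 each). Acvr2a, a type II receptor for activins and some BMPs, had 11.4 and 11.3 in KO and 8.11 and 5.40 in WT. Eng, the endothelial coreceptor endoglin, had 8.80 and 7.22 in KO replicates 1 and 8 and 11.2 and 14.6 in WT replicates 3 and 6. Acvr1, a type I receptor, had 13.2 and 10.1 in KO and 15.8 and 14.9 in WT. Neo1 had 11.9 and 11.6 in KO and 11.4 and 5.08 in WT, and Rgmb, a low gene, had 4.18 and 5.67 in KO and 2.90 and 3.50 in WT. Both KO libraries thus lay above both WT libraries for 3 of the 10 (Acvr2a, Neo1 and Rgmb), against 14.5% of all tested genes. They lay below for 2 (Eng and Acvr1), against 19.3%, and none of the 10 passed the test.

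Extracellular antagonists and modulators diverged more than the receptors. Sostdc1, a secreted antagonist of BMP and Wnt ligands, had 3.74 and 0.515 in KO replicates 1 and 8 and 36.5 and 26.1 in WT replicates 3 and 6. Both KO values were far below the WT values, on 17 and 2 reads in KO. Sostdc1 had a log2 fold change of −3.57 (SE 0.64, limma adjusted p = 0.442). In the authors' deposited table its log2 fold change was −3.83 with an adjusted p of 0.000917. It was the sole one of the 42 further BMP genes past 0.05 there, where 0.749% of the 14157 listed genes were. DESeq2 called Sostdc1 as well, with 0.406% of genes called. By reads per unit of depth the KO rate of Sostdc1 was 0.0693 times the WT rate (95% exact Clopper-Pearson interval 0.0411 to 0.110, counting error only). Grem1, gremlin, an antagonist made by mesenchymal cells, had 5.50 and 73.2 in KO replicates 1 and 8, against 5.79 and 3.81 in WT replicates 3 and 6. Fstl1, a follistatin-like secreted glycoprotein, had 4.40 and 34.3 in KO and 7.14 and 6.67 in WT. Grem1 and Fstl1 were thus high in KO replicate 8 alone. Twsg1, which modulates ligand binding to chordin, had 18.3 and 17.3 in KO and 9.84 and 14.9 in WT. Of the 11 tested genes 8 were higher and 3 lower in KO (median 0.22), with a median of −0.22 for KO replicate 1 alone and 0.67 for KO replicate 8 alone.

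Among the SMADs that carry the signal, 2 of the 5 tested had both KO libraries above both WT libraries, against 14.5% of all tested genes. Smad4, the common partner, had 29.5 and 34.0 in KO replicates 1 and 8 and 16.4 and 21.9 in WT replicates 3 and 6, and Smad2, of the TGF-beta branch, had 26.0 and 28.1 in KO and 17.4 and 20.02 in WT. The genotypes overlapped for neither. Smad1 and Smad5, of the BMP branch, overlapped, with 43.7 ± 17.6 in KO and 28.0 ± 11.7 in WT for Smad1 (SD, n = 2 each) and 31.4 ± 9.21 in KO and 30.1 ± 11.8 in WT for Smad5. Of 5 tested SMADs, 4 were higher and 1 lower (median 0.51), and 0 passed. The lower one was Smad3, with 6.38 and 18.3 in KO and 12.7 and 13.03 in WT. The median was 0.22 without KO replicate 8 and 0.21 without WT replicate 3. The inhibitory SMADs and other intracellular inhibitors, Smad6 and Smad7 included, had 6 of 9 tested genes higher and 3 lower (median 0.19), and the median was −0.18 without KO replicate 8 and −0.12 without WT replicate 3.

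BMP target genes other than the members were few and mostly low. Of 13 in the list, 7 were tested, 2 of them higher and 5 lower in KO (median −0.16). With KO replicate 8 left out the median was −0.80, and with KO replicate 1 left out it was 0.16. Junb, an AP-1 gene, was the sole well-expressed one, with 103 and 156 in KO and 114 and 171 in WT. Both KO libraries lay below both WT libraries for Msx2 and Hey1, 2 of the 7 tested, against 19.3% of all tested genes. Msx2 and Hey1 are low genes named here after their values were seen. Msx2, a homeobox target of BMP signalling, had 0 and 1 reads in KO and 9 and 15 in WT. Its KO rate was 0.0412 times the WT rate (95% exact Clopper-Pearson interval 0.001001 to 0.252, counting error only). Hey1 had 3 and 3 reads in KO and 8 and 4 in WT. The 2 higher genes, also low, overlapped between genotypes. Runx2 had 0.880 and 11.9 in KO replicates 1 and 8 and 5.60 and 0.635 in WT replicates 3 and 6. Bambi had 0 and 7 reads in KO and 6 and 0 in WT.

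The E proteins, partners that Id proteins bind, had no common direction. Of 15 E proteins and other basic helix-loop-helix genes in the list, 4 were tested, 2 higher and 2 lower in KO (median −0.12, and 0.10 without KO replicate 1). Tcf3, whose products are E12 and E47, had 15.6 and 21.6 in KO replicates 1 and 8 and 26.3 and 23.8 in WT replicates 3 and 6. Tcf12 had 36.1 and 49.2 in KO and 37.8 and 36.5 in WT. Tcf4, the E2-2 gene, had 18.7 and 54.4 in KO replicates 1 and 8, against 19.7 and 18.7 in WT. Both KO libraries lay below both WT libraries for 2 of the 4 tested, Tcf3 and a gene of low values, against 19.3% of all tested genes. They lay above for 0, against 14.5%, and none of the 4 passed the test.

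**Figure D5:**
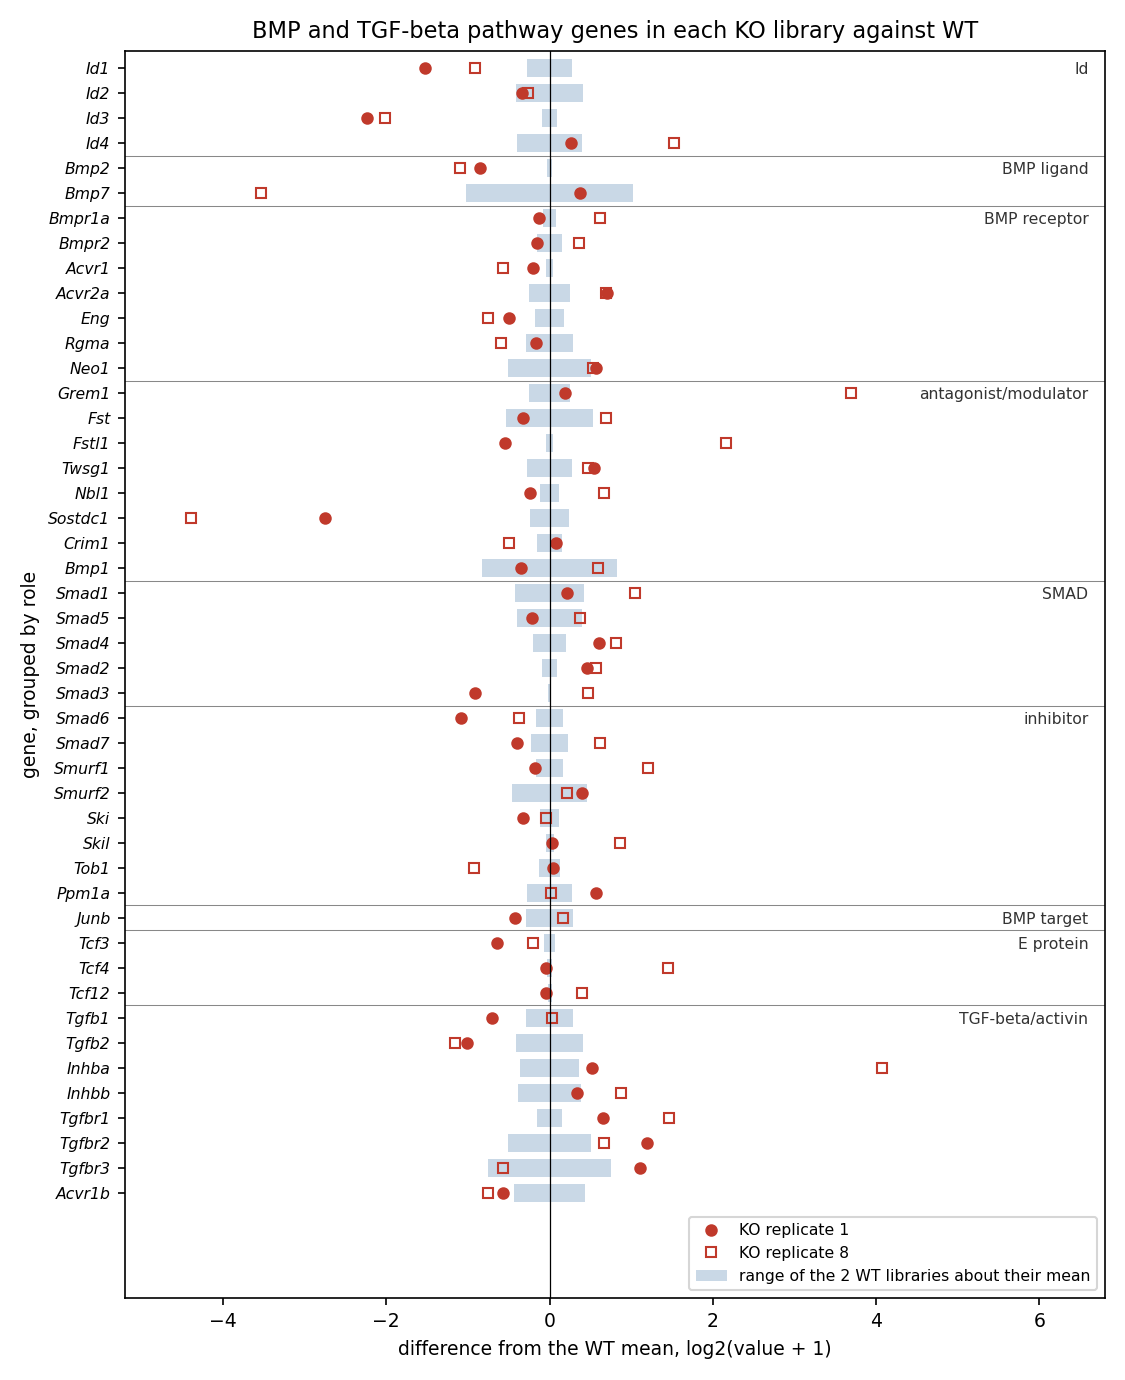
Difference of each KO library from the WT mean on the log2(value + 1) scale, for tested pathway genes with a mean value of at least 5 and for the members, grouped by role (TGF-beta target genes are not drawn). Blue bars show the range of the WT libraries about their mean. Id1, Id3 and Sostdc1 lie left of the WT range in both KO libraries, while Grem1 and Inhba are far right in KO replicate 8 alone.

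The tumours also differed in cell type markers, and in bulk RNA fewer cells of a type and less RNA per cell cannot be told apart. Endothelial markers, from cells in which Id1 and Id3 are abundant, summed to 31.2 and 29.6 in KO replicates 1 and 8 and 40.5 and 62.0 in WT replicates 3 and 6. Of 9 tested, 7 were lower in KO, against 52.5% of all tested genes. For 6 of the 9 both KO libraries lay below both WT libraries, against 19.3% of all tested genes. Cldn5, too low to be tested, had 0 and 4 reads in KO and 5 and 2 in WT. Flt1, a VEGF receptor, had 7.70 and 4.12 in KO and 11.002 and 17.8 in WT, while Pecam1 overlapped, with 5.28 and 7.47 in KO and 4.44 and 6.35 in WT. The endothelial median difference from the WT mean was −0.56 for each KO library on the log2(value + 1) scale, on which low genes show too small a difference.

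Suprabasal keratinocyte markers summed to 2682 and 153 in KO and 12477 and 3551 in WT, with 10 of 11 lower in KO, and Krt1 and Dsg1a had 0 reads in KO replicate 8. Basal keratinocyte markers summed to 22569 and 5739 in KO and 24040 and 22375 in WT. Of the 9 basal markers, 3 were higher and 6 lower in KO. Fibroblast markers summed to 132 and 911 in KO and 135 and 273 in WT, and skeletal muscle markers to 75.0 and 437 in KO and 62.2 and 76.6 in WT, both highest in KO replicate 8. Macrophage markers, with 9 of 9 tested higher in KO, summed to 92.4 and 199 in KO and 35.9 and 41.6 in WT. Smooth muscle and pericyte markers summed to 170.0 and 200.2 in KO and 78.0 and 121 in WT. Of 11 genes taken as lymphocyte and natural killer cell markers, 10 were not listed, and 1 gene cannot describe these cells. That gene, Ptprc, had 3.74 and 19.3 in KO and 1.93 and 2.54 in WT. The part of these cell types in the Id and BMP values was not tested.

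The genes whose profile over the 4 libraries was nearest to those of Id3, Id1 and Id2 were picked by the root mean square distance between centred log2 values, among 8142 other protein-coding genes with a mean value of at least 5. Nearest to Id3 was Slpi, a secreted protease inhibitor of squamous epithelium, at a distance of 0.090, with 15.8 and 18.6 in KO and 83.4 and 80.1 in WT. Ckb and Ank followed at 0.15 and 0.18, where the median gene was at 1.12. Nearest to Id1 were Epas1, the hypoxia-inducible factor HIF-2 alpha, at 0.073, Aspscr1 at 0.11 and Col12a1 at 0.12. Epas1 had 43.5 and 58.8 in KO and 143 and 93.4 in WT. Nearest to Id2 were Dynll1 at 0.021, Ugdh at 0.038 and Trp63, the p63 regulator of basal squamous cells, at 0.044, with 244 and 241 in KO and 235 and 407 in WT. Id1 was not the gene most like Id3: 86 of the 8142 genes were nearer. With 4 libraries, such likeness is a description.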

How the data were processed

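The deposited table has 1 row per gene and 1 column per library. Per the file headers the library columns carry library names only. They hold read signal that the authors scaled per library, since every deposited value is a whole multiple of 1 step (100% of values, tolerance 0.001). Dividing by the step gave whole reads. The submitters' processing notes name DESeq and genome build mm9, without role or version. The aligner, the read counter and its strand setting were not given in the sources used here. Log2 is the unit of the authors' deposited fold change, and their p-value and adjusted p-value columns come from a test the file headers do not name. RNA was extracted with Trizol and libraries made with a TruSeq kit, per the labels' protocols.

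The log2(value + 1) scale was used, on which low genes show too small a fold change. Genes that reached 1 in 2 or more libraries were fitted together with limma 3.58.1 (trended prior, R 4.3.3), fitting genotype alone. Its two-sided p-values were adjusted by Benjamini-Hochberg over 12304 genes, with a threshold of 0.05. Median reads per gene were 22 to 39 per library. The fit was tested on simulated data. Alternatives were quantile normalization, TMM factors of nuclear protein-coding genes, a pseudocount of 0.1, an untrended limma prior, no filter, edgeR 4.0.16 and DESeq2 1.42.0 on recovered reads, and leaving out each library.

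The members and lists were chosen with earlier results of these data known. All members were named, list genes with a mean value of at least 5 could be named, and for Id1, Id2 and Id3 the 3 genes nearest in profile. Bmp3, Rgmb, Msx2, Hey1, Runx2 and Bambi, which fell below that mean, were named after their values were seen. Exon lengths and gene positions are from GENCODE M21 (GRCm38). No coordinate was used to make a value.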

Additional observations from a re-analysis of the deposited data

How the results depend on the processing

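No paired analysis was possible because the KO libraries (replicates 1 and 8) and the WT libraries (replicates 3 and 6) share no replicate number. In limma 1 gene, S100a14, passed the threshold. The count was also 1 with quantile normalization, with TMM factors and without a trend, 2 without the filter, 0 with a pseudocount of 0.1 (592 at an unadjusted p under 0.05), 0 in edgeR's quasi-likelihood test (630) and 47 in DESeq2, which left 716 genes without an adjusted p. With 1 library left out it ranged from 0 to 510: it was 510 without KO replicate 1, Id3 and Bmp7 among them, 6 without KO replicate 8, and 0 without WT replicate 3 or WT replicate 6. In those fits the lone library of a genotype is assumed to vary like the other pair. The median log2 fold change of the 9 members, −0.73, was −1.08 with a pseudocount of 0.1, −0.84 in edgeR and −0.84 in DESeq2, and ranged from −0.90 to −0.38 with 1 library left out. The cause of these shifts was not tested. The other 4 alternatives moved it by less than the spread between replicates. The sign changed for Id2 without WT replicate 6 (0.12), for Bmp7 (0.38) and Bmpr1a (−0.12) without KO replicate 8, and for Smad7 without KO replicate 8 (−0.40) or WT replicate 3 (−0.12). Depth limits Bmp2, Smad6 and Id4, which rest on 3 to 34 reads per library.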

Other observations

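The neighbouring TGF-beta and activin branch, which signals through SMAD2 and SMAD3, had 9 tested ligand and receptor genes, 6 higher and 3 lower in KO. Their median log2 fold change was 0.37, against −0.03 over all tested genes. The median was 0.22 without WT replicate 3 and 0.996 without WT replicate 6. None of the 9 passed in limma (smallest adjusted p = 0.926). Tgfbr1, the type I receptor, had 12.98 and 23.4 in KO replicates 1 and 8 and 6.95 and 8.90 in WT replicates 3 and 6. Tgfbr2, the type II receptor, had 47.9 and 33.0 in KO and 14.1 and 29.5 in WT. Both KO libraries were above both WT libraries for 3 of the 9 (Tgfbr1, Tgfbr2 and Inhba), against 14.5% of all tested genes. They were below for 2 of the 9, against 19.3%. The ligand gene Tgfb2 was among the 2, with 5.50 and 4.90 in KO and 16.4 and 8.90 in WT. Inhba, the activin A subunit, had 6.16 and 83.2 in KO replicates 1 and 8, against 2.90 and 5.40 in WT. Inhba was far higher in KO replicate 8 than in KO replicate 1.

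Targets of that branch were mixed, with 5 of 9 higher and 4 lower in KO (median 0.45, and −0.33 in KO replicate 1 alone). Cdkn2b, the cell cycle inhibitor p15, had 6.16 and 5.67 in KO and 25.9 and 10.5 in WT. Both KO libraries lay below both WT libraries for 2 of the 9, Cdkn2b among them, against 19.3% of all tested genes. They lay above for 0, against 14.5%, and none of the 9 passed the test. Ctgf, a matrix-associated target, had 36.5 and 6.70 in KO replicates 1 and 8 and 10.4 and 41.3 in WT replicates 3 and 6, with each genotype holding a high and a low library.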
